A study of Oryza sativa Japonica Group with 8 samples.

Results

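Nitrate and ammonium are the mineral forms in which a rice plant takes up nitrogen, and each crosses the plasma membrane through transporter proteins of its own. Nitrate is carried by NRT1 proteins and by high-affinity NRT2 proteins, several of which work with the small partner protein NAR2.1. Ammonium enters through AMT1 channels. NRT2 and NAR2.1 are best known from roots, where nitrogen supply sets their expression, whereas AMT1.1 is known from shoots as well as roots. The 8 genes described here are NRT1.1B, NRT2.1, NRT2.2, NRT2.3, NAR2.1 and the 3 AMT1 genes. They were taken by gene identifier from a table of 55801 genes.

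Their RNA was measured in leaves of rice seedlings of the cultivar Nipponbare (Japonica group). The treated seedlings (CD, 2 libraries) were raised from seed on diluted MS medium, a mineral salt medium, that held carbon dots, nanoparticles of carbon, at 0.56 mg/ml. The control seedlings (CK, 2 libraries) were raised on the same medium without them. Sample labels describe seedlings aged 2 weeks, whereas the treatment protocol describes 3 weeks in the growth chamber. Nothing in the labels ties a replicate to its own plant or culture. The other 4 samples of the series, of bisulfite sequencing, were not analysed here.

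Libraries held 49281927 to 74853055 counts in CD and 60763633 to 80317398 in CK. In TPM, counts are divided by gene length and scaled to a common total, without TMM factors. CPM is scaled for library size with TMM factors and not for gene length. Levels in each library are given in TPM unless counts or CPM are named. Gaps on the log2 scale, and fold changes unless another scale is named, use TMM factors. Over the 26271 genes tested, the median absolute difference between 2 libraries was 0.27 (log2 CPM) for the CD replicates and 0.20 for the CK replicates, and the 4 pairs of a CD with a CK library gave 0.22 to 0.28. The CD replicates differed from each other about as much as from the controls. The 3 leaf markers (RCA, CAB1R and CAB2R) summed to 14018 and 8048 TPM in CD against 15488 and 17557 TPM in CK. Most of it came from RCA, the Rubisco activase, at 13574 and 6350 TPM in CD and 12052 and 16375 TPM in CK. The light-harvesting gene CAB1R stood at 95.5 and 439 TPM in CD against 965 and 322 TPM in CK, and CAB2R at 349 and 1259 TPM in CD against 2470 and 860 TPM in CK. Both therefore differed widely between the replicates of each group. The 5 root markers summed to 36.4 and 41.4 TPM in CD against 40.1 and 46.5 TPM in CK, with the silicon exporter gene LSI2 at 0 counts in all 4 libraries. The others were present and did not move together. NIP2.1 was lower in both CD libraries, at 21.9 and 21.2 TPM against 23.7 and 24.3 TPM in CK. NRAMP5 overlapped, at 8.07 and 12.8 TPM in CD and 11.8 and 18.4 TPM in CK. PIP2.3 and PIP2.5 were higher in both CD libraries, PIP2.5 at 5.5 and 5.3 TPM against 3.9 and 3.3 TPM in CK. The 3 markers of meristem and dividing cells summed to 35.8 and 32.1 TPM in CD against 31.1 and 32.1 TPM in CK, nearly all of it from the replication gene PCNA. Both meristem genes among them had lower values in CD. OSH1 was at 0 TPM in both CD libraries and at 0.97 and 0.46 TPM in CK, and OSH15 was at 0.15 and 0.32 TPM in CD and at 1.23 and 0.99 TPM in CK. The part that tissue makeup has in the values below was not tested, and in whole leaves fewer cells of a type and less RNA per cell cannot be told apart.

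Names were checked by position against RefSeq records (assembly ASM3414082v1, used for names only). NRT2.1, NRT2.2, NRT2.3, NAR2.1 and AMT1.1 had a record of the same name at the matching place, and NRT1.1B had no named record. For the neighbouring genes LOC_Os02g40710 and LOC_Os02g40730 the records run the other way round from the list used. That list called LOC_Os02g40710 AMT1.2 and LOC_Os02g40730 AMT1.3, whereas RefSeq has OsAMT1;3 at the place of the first and OsAMT1;2 at the place of the second. The 2 genes are therefore called by identifier here.

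The transporters spanned a wide range in these leaves, and their order was the same in all 4 libraries for the 5 genes detected in each. AMT1.1 was the most abundant, NRT1.1B came next, and the other 6 genes were low or not detected. Across the 4 libraries AMT1.1 (LOC_Os04g43070, chromosome 4 from 25500158 to 25502633, plus strand, 1 exon, on the build of the authors' count table, which the sources used here do not name) averaged 93.6 ± 22.0 TPM (SD, n = 4). It stood above 93.2% to 96.9% of all genes in the table. NRT1.1B (LOC_Os10g40600, chromosome 10 from 21757768 to 21762202, minus strand, 2 exons) averaged 32.3 ± 5.39 TPM. LOC_Os02g40730 (chromosome 2 from 24690884 to 24692884, plus strand, 1 exon) averaged 1.66 ± 0.19 TPM.

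NRT2.3 (LOC_Os01g50820, chromosome 1 from 29188850 to 29190965, plus strand, 1 exon) averaged 0.56 ± 0.31 TPM. NAR2.1 (LOC_Os02g38230, chromosome 2 from 23121133 to 23123149, minus strand, 2 exons) averaged 0.21 ± 0.14 TPM. These 5 genes had counts in every library. By 95% exact Poisson intervals, which cover counting error only, neighbours in that order were apart in every library except NRT2.3 and NAR2.1, whose intervals overlapped in 3 of 4.

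**Figure D1:**
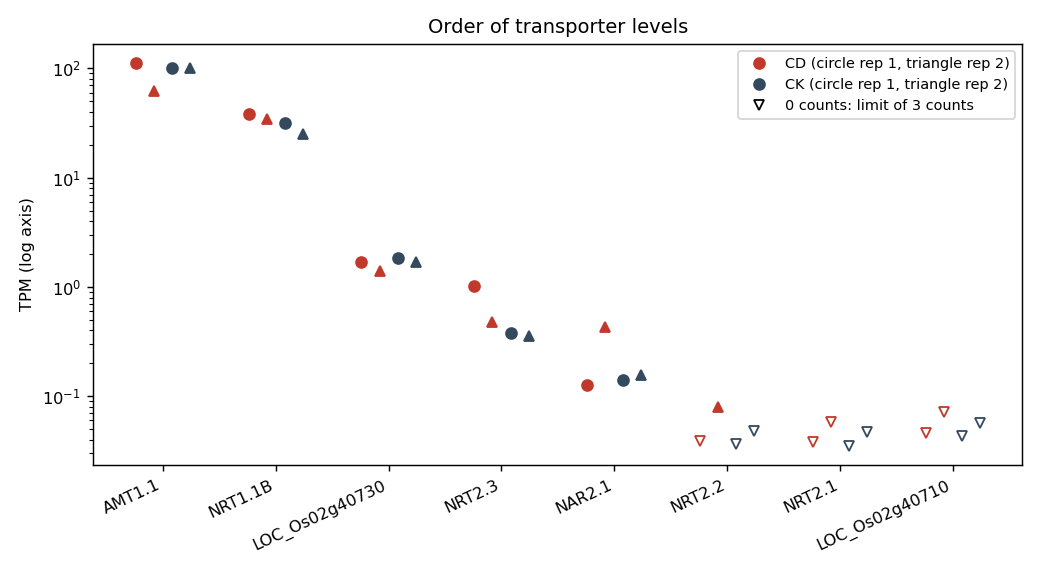
TPM of the 8 transporter genes on a log axis, from the highest to the lowest mean, with CD libraries in red left of CK libraries in dark blue. Open triangles stand at the limit of 3 counts where a gene had 0 counts. AMT1.1 lies between 61.5 and 111.7 TPM and NRT1.1B between 25.3 and 38.0 TPM, and no other gene passes 1.85 TPM.

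The remaining 3 genes were at or near 0. NRT2.1 (LOC_Os02g02170, chromosome 2 from 655324 to 657245, plus strand, 1 exon) and LOC_Os02g40710 (chromosome 2 from 24683633 to 24685205, plus strand, 1 exon) had 0 counts in all 4 libraries, as had 37.7% of all genes in the table. A count of 0 allows up to 3 counts, which is 0.038 and 0.058 TPM in CD and 0.035 and 0.047 TPM in CK for NRT2.1. For LOC_Os02g40710 the same limit is 0.046 and 0.071 TPM in CD and 0.043 and 0.057 TPM in CK. NRT2.2 (LOC_Os02g02190, chromosome 2 from 667194 to 669053, minus strand, 1 exon) had 0 and 4 counts in CD and 0 in both CK libraries. On these counts the 95% exact interval of the ratio of CD to CK starts at 0.696, so no difference was detectable at this depth. NRT2.1 and NRT2.2 are known to have near-identical coding sequences in rice, and whether reads that match both copies were counted is not given in the sources used here. Their values are uncertain for that reason. The gene models next to NRT2.1 and NRT2.2 on either side also had 0 counts.

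Between treated and control leaves, no transporter passed the test. Of the 8 genes, 4 had enough counts to be tested (the filter on low counts kept 47.1% of all genes), namely NRT1.1B, NRT2.3, AMT1.1 and LOC_Os02g40730. edgeR's quasi-likelihood test with Benjamini-Hochberg adjustment over all 26271 genes called 0 of them at an adjusted p of 0.05, and 0 of all genes (0%). At an unadjusted p under 0.05 it gave 0 of the 4, against 8.7% of all genes tested. DESeq2 also called 0 of the 4, against 1.91% of all genes. With no filter on low counts edgeR called 0 of the 6 transporters that had counts, against 0.0834% of genes. Both CD libraries lay on one side of both CK libraries in CPM for 3 of the 4 genes, as they did for 38.4% of all genes tested. They were higher for NRT1.1B and NRT2.3 (17.8% of all genes tested) and lower for LOC_Os02g40730 (20.7%). With 2 libraries against 2, an exact permutation test of a single gene cannot give a two-sided p under 0.333.

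**Figure D2:**
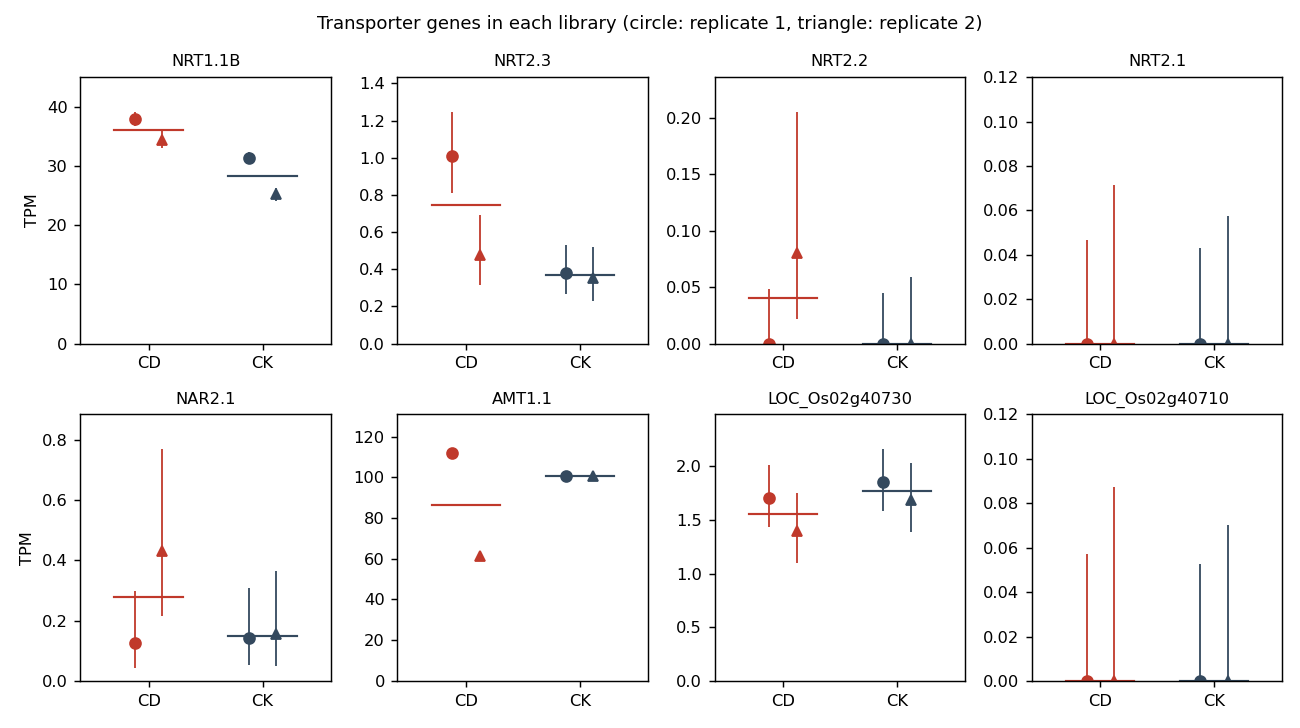
TPM of each transporter gene in the CD libraries (red, left) and the CK libraries (dark blue, right). Circles are replicate 1, triangles replicate 2, horizontal lines group means, and vertical lines 95% exact Poisson counting intervals. NRT1.1B and NRT2.3 lie higher in both CD libraries, whereas AMT1.1 has the largest gap in TPM between the CD replicates, at 111.7 and 61.5. As log2 CPM of CD replicate 1 over 2, the gap is 0.83 for AMT1.1, 1.05 for NRT2.3 and -1.79 for NAR2.1.

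Among the nitrate transporters, NRT1.1B, a plasma membrane carrier that also acts in nitrate sensing, stood at 38.0 and 34.5 TPM in CD and 31.4 and 25.3 TPM in CK, from 3738 and 2214 counts in CD and 3348 and 2026 in CK. In CPM it stood at 47.4 and 44.1 in CD and 43.1 and 34.7 in CK. Both CD libraries were above both CK libraries, in CPM by a narrow margin. The log2 fold change (CD over CK, from CPM) was 0.23 ± 0.17 (SE), with a 95% interval of -0.20 to 0.67 and an adjusted p of 0.803 by edgeR. The CK replicates differed by 0.31 on the log2 CPM scale and the CD replicates by 0.10, so the gap between the controls was larger than the group difference. The log2 fold change was 0.40 without CK replicate 1 and 0.09 without CK replicate 2.

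Of the NRT2 genes described here, NRT2.3 had the most counts in these leaves. NRT2.4, which had no matching RefSeq record, was not among them. In rice NRT2.3 gives rise to a pair of transcripts that encode different proteins, which counts per gene cannot separate. Its level was 1.01 and 0.48 TPM in CD and 0.38 and 0.35 TPM in CK, from 88 and 27 counts in CD and 36 and 25 in CK. CD replicate 1 stood apart from the other 3 libraries, and CD replicate 2 lay within the counting intervals of both controls, which reached 0.53 and 0.52 TPM in CK replicates 1 and 2. The log2 fold change was 0.90 ± 0.52 (SE, 95% interval -0.43 to 2.23, adjusted p = 0.717 by edgeR). The summed counts, 115 in CD and 61 in CK, gave a ratio of 1.99 with a 95% exact interval of 1.44 to 2.76, which covers counting error and not the spread between libraries. Leaving out CD replicate 1 gave a log2 fold change of 0.27, and leaving out CD replicate 2 gave 1.32. The gap between the CD replicates, 1.05 on the log2 CPM scale, was larger than that of 82.1% of the genes tested, and the gap between the CK replicates was 0.11.

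NAR2.1, a partner protein of several NRT2 carriers, had 5 and 11 counts in CD and 6 and 5 in CK. In TPM it stood at 0.13 and 0.43 in CD and 0.14 and 0.16 in CK. CD replicate 2 was the highest library and CD replicate 1 the lowest. The groups overlapped. Too few counts were present for the test, and the ratio of the summed counts, 16 in CD to 11 in CK, was 1.53 after scaling, with a 95% exact interval of 0.668 to 3.65 from counting error alone. NRT2.3 and NAR2.1 were high in different libraries, NRT2.3 in CD replicate 1 and NAR2.1 in CD replicate 2. NAR2.1 stood at 0.13 and 0.90 of the TPM of NRT2.3 in CD, against 0.37 and 0.44 in CK. The NRT2 genes described here together summed to 1.01 and 0.56 TPM in CD and 0.38 and 0.35 TPM in CK, most of it from NRT2.3.

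AMT1.1, a high-affinity ammonium channel, accounted for almost all AMT1 RNA in these leaves. It made up 98.5% and 97.8% of the summed AMT1 TPM in CD and 98.2% and 98.3% in CK. Its level was 111.7 and 61.5 TPM in CD against 100.8 and 100.5 TPM in CK, from 11370 and 4086 counts in CD and 11108 and 8328 in CK. The CK replicates were nearly equal, 0.003 apart on the log2 CPM scale. In CPM it stood at 144.2 and 81.3 in CD and 143.0 and 142.6 in CK. On that scale CD replicate 1 was above the controls only by a narrow margin, and CD replicate 2 was well below them. The gap between the CD replicates, 0.83, was larger than that of 89% of the genes tested. The log2 fold change was -0.34 ± 0.29 (SE, 95% interval -1.09 to 0.41, adjusted p = 0.851 by edgeR). Leaving out CD replicate 1 gave -0.81 and leaving out CD replicate 2 gave 0.01, so that 1 library decides its direction.

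LOC_Os02g40730, one of the AMT1 genes known for expression in roots, stood at 1.70 and 1.40 TPM in CD and 1.85 and 1.69 TPM in CK, from 140 and 75 counts in CD and 165 and 113 in CK. In TPM the groups overlapped by a narrow margin, and in CPM with TMM scaling they did not, at 1.77 and 1.49 CPM in CD and 2.12 and 1.94 CPM in CK. The log2 fold change was -0.31 ± 0.31 (SE, 95% interval -1.09 to 0.47, adjusted p = 0.881 by edgeR). Leaving out CD replicate 1 gave -0.44, and leaving out CD replicate 2 gave -0.20.

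**Figure D3:**
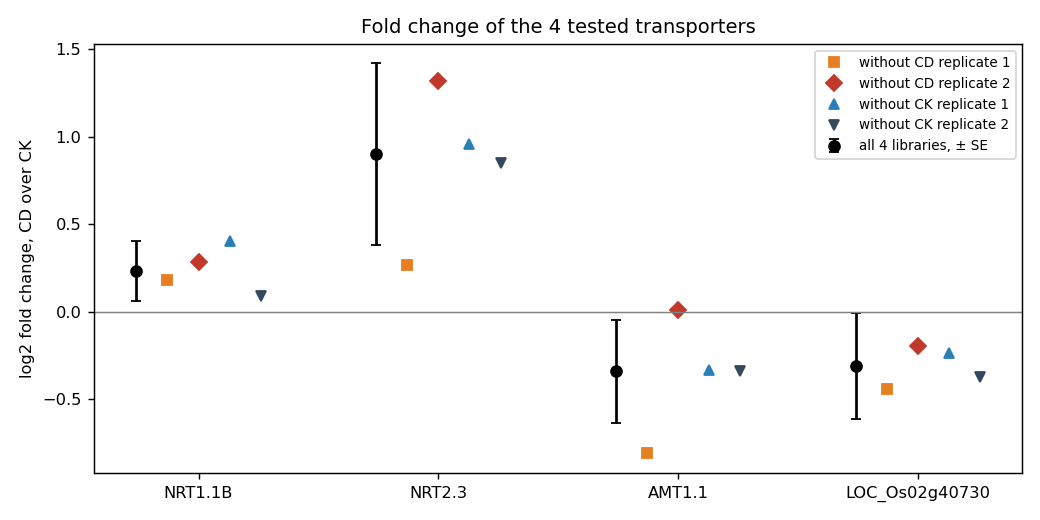
Log2 fold change (CD over CK) of the 4 tested transporters, with all 4 libraries (black, ± SE) and with each library left out. NRT1.1B and NRT2.3 stay above 0 and LOC_Os02g40730 below 0 in these fits, whereas AMT1.1 lies between -0.81 and 0.01.

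The balance between the 2 abundant transporters was also compared, a ratio chosen after the values were seen. AMT1.1 had 2.94 and 1.79 times the TPM of NRT1.1B in CD and 3.21 and 3.98 times in CK. Both CD libraries were below both CK libraries, by a margin smaller than the gap between the CD replicates. The 8 genes together summed to 152.5 and 98.4 TPM in CD and 134.5 and 127.9 TPM in CK, and these ranges overlapped.

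The other genes of nitrogen transport, assimilation and regulation give the setting. Of 45 listed genes, 22 had a matching RefSeq record and 21 of these were tested. edgeR called 0 of them in either direction, as of all genes (0%), and 6 had an unadjusted p under 0.05, against 8.7% of all genes tested. In the ammonium transport list all 5 tested AMT2 and AMT3 genes had a log2 fold change above 0 (4 with a replicate block). Of all 26271 genes tested, 13402 were above 0. The list's median was 0.42 against 0.01 for all genes tested. The smallest, AMT2.1, was at 0.06 and at -0.59 without CD replicate 1, when the median was 0.08. The one with the lowest p was AMT3.2, at 18.4 and 8.47 TPM in CD and 4.73 and 6.46 TPM in CK. Its log2 fold change was 1.14 ± 0.41 (adjusted p = 0.542 by edgeR), and 0.50 without CD replicate 1. AMT2.3 (LOC_Os01g61510) had 0.83 ± 0.50 and AMT3.3 had 0.42 ± 0.31, which were 0.41 and 0.05 without CD replicate 1. AMT2.2 (LOC_Os01g61550) had 0 counts in all 4 libraries. For AMT2.2 and AMT2.3 the list used had the names the other way round, and the RefSeq names are given here. NAR2.2, the other NAR2 gene and the only further nitrate transport gene with a matched name, had 3.58 and 2.97 TPM in CD and 2.66 and 2.98 TPM in CK, well above NAR2.1. Its log2 fold change was 0.10 ± 0.33, with -0.02 when CD replicate 1 was left out and 0.20 when CD replicate 2 was.

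The assimilation list lay on the other side of 0, with 6 of 7 tested genes below it and a median of -0.43. With total count scaling, on the log2(TPM + 1) and log2(TPM + 0.1) scales and without CK replicate 1, 5 were below 0. The list had 12 genes. NIA2, NR2, NIR1, NIR2 and NADH-GOGAT1 had no matching RefSeq record and were left out. Of all 26271 genes tested, 12869 were below 0. The list's median was -0.92 without CK replicate 1 and -0.07 on the log2(TPM + 1) scale. NIA1, a nitrate reductase, stood at 103.9 and 27.7 TPM in CD and 238.9 and 192.9 TPM in CK, with a log2 fold change of -1.84 ± 0.62. Leaving out CD replicate 1 gave -3.06 for NIA1, and leaving out CD replicate 2 gave -1.20. GS2, the plastid glutamine synthetase, had -1.08 ± 0.26. FD-GOGAT, the ferredoxin-dependent glutamate synthase, stood at 442 and 238 TPM in CD and 535 and 710 TPM in CK. By edgeR the adjusted p was 0.522 for NIA1, 0.460 for GS2 and 0.550 for FD-GOGAT. DESeq2 gave NIA1 an adjusted p of 0.0454 and GS2 one of 0.0112, and passed no other gene of the 4 lists. It called 1.91% of all genes tested. Of the regulators, 3 of 8 had a log2 fold change above 0 and 5 below, with a median of -0.14. CIPK23, a kinase whose Arabidopsis counterpart phosphorylates nitrate and ammonium transporters, stood at 64.0 and 46.5 TPM in CD and 32.2 and 25.1 TPM in CK (log2 fold change 0.82 ± 0.22, adjusted p = 0.474 by edgeR). NLP1, a transcription factor of the nitrate response, had -0.50 ± 0.15, and NIGT1, a nitrate-induced repressor, had -0.86 ± 0.38 (-1.34 when CD replicate 1 was left out and -0.52 when CD replicate 2 was).

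**Figure D4:**
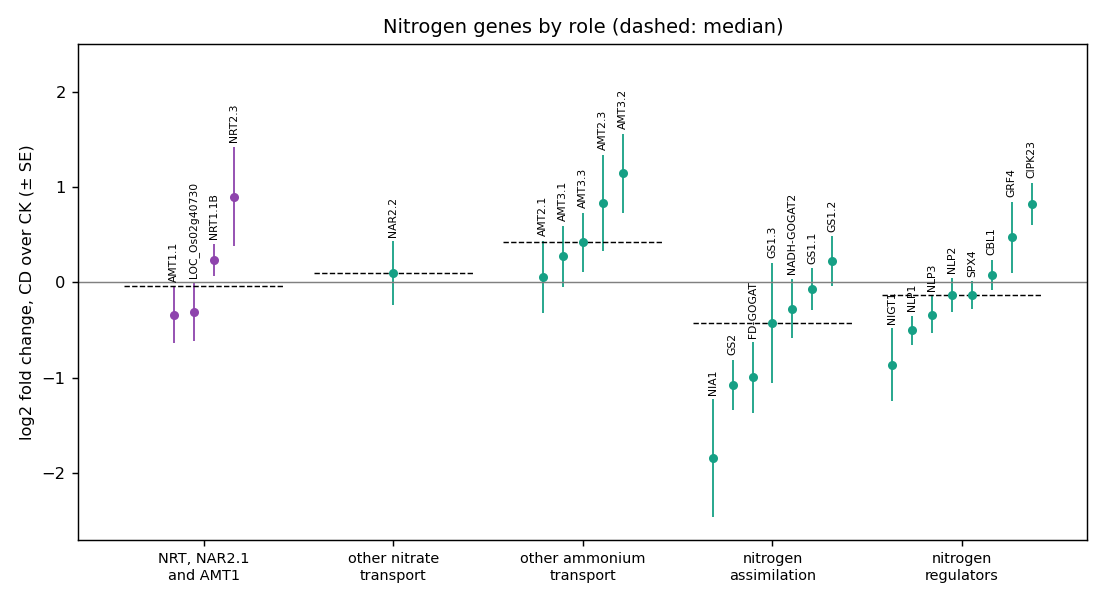
Log2 fold change (CD over CK, ± SE) of the tested genes of nitrate and ammonium transport, nitrogen assimilation and nitrogen regulation, with dashed lines at the list medians. The ammonium transport genes have a median of 0.42 and the assimilation genes one of -0.43, and no gene passed the edgeR test.

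Of the 21 tested genes of these lists, the ones whose centred profile over the 4 libraries lay nearest to that of AMT1.1 were NLP3, AMT2.1 and NLP2. Nearness was the root mean square distance between log2 CPM profiles centred on their means, which depends on the size of changes as well as their direction. It was 0.15 for NLP3, 0.20 for AMT2.1 and 0.21 for NLP2, against 0.94 for NIA1 as the largest. In both NIA1 and AMT1.1 the lowest library was CD replicate 2, at -1.995 for NIA1 and -0.61 for AMT1.1 on the centred scale. For NIA1, CD replicate 1 was also below both CK libraries, at -0.12 against 1.21 and 0.91. For AMT1.1 it was at 0.21, against 0.20 in both CK libraries. The distance alone does not show whether the direction of change differed between NIA1 and AMT1.1.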

How the data were processed

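Raw read counts per gene for 4 leaf libraries were deposited by the authors without normalization, in the layout of featureCounts per the file headers. A second deposited table holds TPM, which was checked to equal counts divided by gene length and scaled to a common total, within 1.4e-07 relative to the value. Tools listed in the submitters' processing notes, with no role or order, include featureCounts 1.6.4, HISAT2 2.0.5, SAMtools 1.9, fastp 0.21.0 and FastQC 0.11.5. Neither the genome build nor the strand setting is given in the sources used here, nor is the treatment of multi-mapped reads. The 4 libraries held 49281927 to 80317398 counts, and intervals on counts cover counting error only.

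The quasi-likelihood F test of edgeR 4.0.16 under R 4.3.3 set the 2 CD against the 2 CK libraries, with TMM factors, filterByExpr and Benjamini-Hochberg adjustment over 26271 genes at 0.05. Each SE is the log2 fold change divided by the root of its F. A p-value here reflects only how far these libraries spread, and that spread may be technical. DESeq2 1.42.0, limma 3.58.1 (voom included), RLE and total count scaling, 2 other filters, log2(TPM + 1), log2(TPM + 0.1), a replicate block, summing NRT2.1 with NRT2.2, and leaving out each library were alternatives. The promoter motif search and protein identities planned were not run, since no sequences were used here. The procedure was tested on simulated data. A name matched where its RefSeq record lay on the same chromosome and at least 30% of the 15 genes on each side had a record within 500 bases at the same shift. Named genes were the 8 transporters, up to 3 genes with the lowest p of each list, and the 3 nearest profiles. The members and lists were chosen with earlier results of these data known.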

Additional observations from a re-analysis of the deposited data

How the results depend on the processing

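No transporter passed the test under any alternative run, and the lowest adjusted p was 0.2985 (AMT1.1 without CD replicate 1). Only DESeq2, with 502 of 26271 genes (2 of them in the assimilation list), and edgeR with no filter, with 29 of 34758 genes, called any gene. Leaving out 1 library, where the lone sample is assumed to vary like the other group, gave log2 fold changes of 0.09 to 0.40 for NRT1.1B, 0.27 to 1.32 for NRT2.3, -0.81 to 0.01 for AMT1.1 and -0.44 to -0.20 for LOC_Os02g40730. AMT1.1 without CD replicate 2 (0.011) was the only change of direction among the 4 tested transporters. The groups were apart for 3 of 4 tested transporters, and for 2 of 4 with total count scaling or TPM. With the stricter filter, under which NRT2.3 was not tested, they were apart for 2 of 3. With 1 library left out they were apart for 3 to 5, where up to 5 could be tested. Leaving out 1 library sets 1 against 2, where groups lie apart more easily than with 2 against 2. Those counts therefore cannot be compared with the 3 of 4. The share of 38.4% of all genes holds for the main setting only, and none is given for the alternatives. Total count scaling moved the median of all genes to 0.11 (log2) and NRT1.1B to 0.34, AMT1.1 to -0.23. Replicates 1 and 2 share only a number across groups, and their deviations correlated at -0.20. With the replicate block, NRT1.1B was at 0.24, NRT2.3 at 0.82, AMT1.1 at -0.40 and LOC_Os02g40730 at -0.32, with 0 genes called by edgeR (1670 at an unadjusted p under 0.05). A crossed pairing, added after seeing the data, also called 0 genes (2922 unadjusted). NAR2.1 entered the test in 4 alternatives, at 1.41 without CD replicate 1, 0.66 without CK replicate 1, 0.81 without CK replicate 2 and 0.74 with no filter. On the log2(TPM + 1) scale, which understates changes of low genes, NRT2.3 was at 0.33, NRT1.1B at 0.35 and LOC_Os02g40730 at -0.12, and on the log2(TPM + 0.1) scale LOC_Os02g40730 was at -0.19. The stricter filter, at least 1 CPM in 2 libraries, dropped NRT2.3. The assimilation median was -0.17 on the log2(TPM + 0.1) scale. Depth limits NAR2.1, NRT2.1, NRT2.2 and LOC_Os02g40710, for which counts were too few to test.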
